A study of Drosophila melanogaster with 6 samples.

Results

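The neurexin, neuroligin and synaptic scaffold genes of the larval brain were taken by name: *Nrx-1*, *Nlg1*, *Nlg2*, *Nlg3*, *Nlg4*, *dlg1* and *Prosap*. All 7 were found among the 17137 gene names listed, with 45 of the 36294 transcripts. The rule uses no measured value.

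The brains came from wild-type *Drosophila melanogaster* larvae at the third instar, of the Canton-S strain, collected 6 days after egg-laying. In the alcohol group, larvae grew on standard food brought to 5% alcohol when it was made, with more alcohol pipetted onto the surface each day. In the control group, water replaced the alcohol when the food was made, and nothing was added daily, so the daily handling of the food also differed between the groups. Each group had 3 pools of about 30 dissected brains, whose poly-A RNA was sequenced with strand kept. The labels do not say whether pools of a group came from separate cultures, so p-values measure the spread between these pools only.

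Neurexins are adhesion proteins of the presynaptic membrane, and neuroligins are their postsynaptic partners, so that binding across the cleft aligns release sites with receptors. Scaffold proteins beneath the membrane hold these adhesion proteins, receptors and channels in place. Discs large, the product of *dlg1*, is the fly relative of PSD-95 and also sets the polarity of epithelial cells, while *Prosap* encodes the fly Shank, a postsynaptic scaffold. In the fly these genes are best known from the larval neuromuscular junction, where mutants have fewer or malformed synaptic boutons.

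Values are FPKM, the fragments of a transcript scaled for its length and for the mapped fragments of the pool, so that levels of different genes can be set side by side. The level of a gene is the FPKM summed over its listed transcripts. Sequence aligned to the genome came to between 2719.5 and 4243.7 megabases per pool, and no read counts were used here, so error is given as the spread between pools. Values per pool are given in the order of replicates 1, 2 and 3, for the control pools (the controls) and then for the pools grown with alcohol. All 7 neuron markers, *elav* and *nSyb* among them, were detected in every pool. Markers of other larval tissues were present too: the 5 salivary gland markers summed to between 14023 and 55711 FPKM, the 4 fat body markers to between 524 and 4454 FPKM, and the 10 muscle markers to between 60.8 and 476 FPKM. Of these 3 lists, 0 markers were at 0 in every pool. In a bulk sample, fewer cells of a type and less RNA per cell cannot be told apart.

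Over the 6 pools the genes stood in a steady order. The scaffolds were highest, with a mean of 47.5 FPKM for *dlg1* and 28.9 FPKM for *Prosap*, followed by *Nrx-1* at 16.9 FPKM and *Nlg2* at 13.5 FPKM. *Nlg3* and *Nlg4* were lower, at 4.91 and 4.17 FPKM, and *Nlg1* was listed at 0.269 FPKM. Each of these genes was above the next in the order in all 6 pools, except that *Nlg3* was above *Nlg4* in 5 of 6. *Nlg3* and *Nlg4* are therefore the neighbours whose order did not hold in every pool. Of all listed genes, 89.6% lay below *dlg1* and 30.3% lay below *Nlg1*.

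No difference between alcohol and control pools was called in the summed level of any of these genes. A feature was tested if the variance of its FPKM over the pools was above 1, which 6 of the 7 genes met, *Nlg1* being the exception. A difference was called at an unadjusted p under 0.05 and more than a 2-fold change, in a limma fit of log2(FPKM + 1) on treatment and a library-size covariate. Of the 6 genes, 0 were called, 0 had an unadjusted p under 0.05, and in 0 of the 7 did the groups fail to overlap. Over all 8247 genes tested, 1.36% were called (93 higher and 19 lower in alcohol pools, or 45 and 35 without the covariate), 3.42% had an unadjusted p under 0.05 and 6.21% had groups that did not overlap. The adjusted p of all 6 genes in the limma fit was 0.999.

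**Figure D1:**
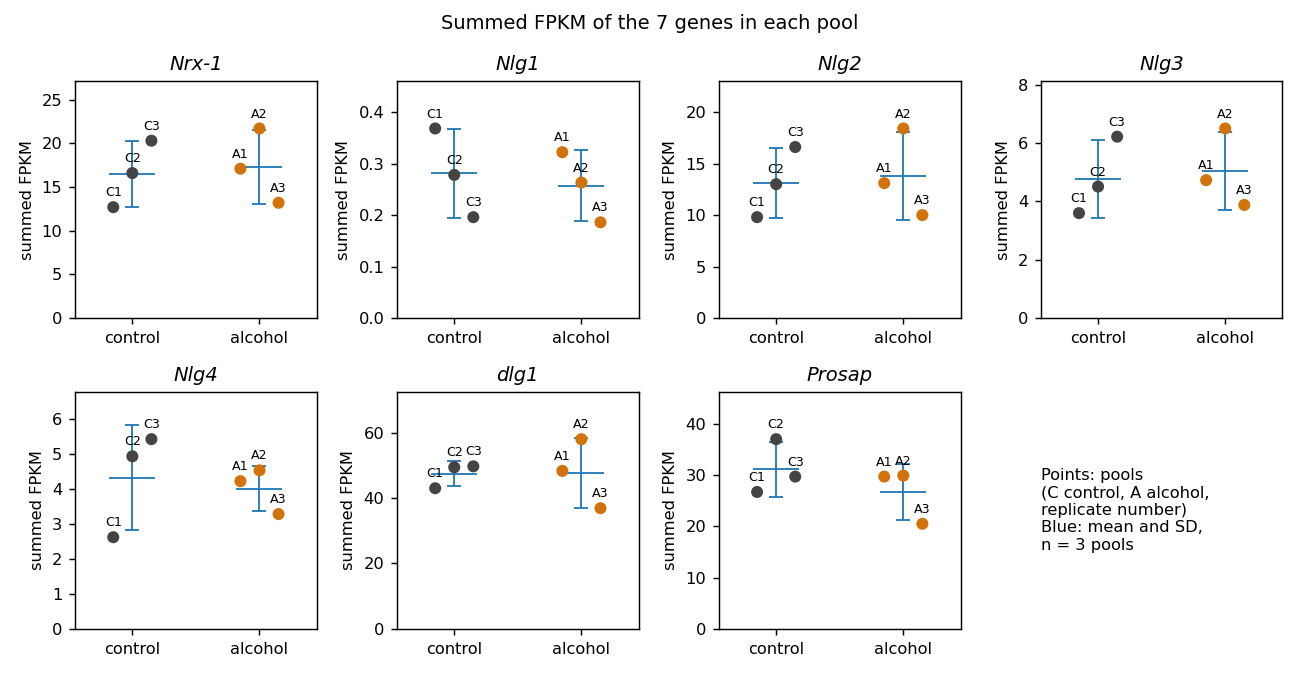
Summed FPKM (vertical axis, from 0) of each of the 7 genes in the 3 control pools (grey) and the 3 alcohol pools (orange), with mean and SD of each group in blue. The groups overlap for every gene, and alcohol pool 2 is the highest pool and control pool 1 the lowest for *Nrx-1*, *Nlg2* and *Nlg3*.

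*Nrx-1* lies on chromosome 3R (FBgn0038975, dm6, 3R:22468512-22486969, plus strand). It was at 12.7, 16.6 and 20.3 FPKM in control pools 1, 2 and 3, and at 17.1, 21.7 and 13.2 FPKM in alcohol pools 1, 2 and 3. The spread within each group was wide, and both the lowest control pool and the lowest alcohol pool lay near 13 FPKM. Group means were 16.5 ± 3.79 and 17.3 ± 4.25 FPKM (SD, n = 3 each). The limma log2 fold change was -0.14, with a 95% interval of -0.64 to 0.36, which is 0.643 to 1.29 as a fold of FPKM + 1.

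*Nlg2* (FBgn0031866, 2L:6874900-6906656, plus strand), a neuroligin that acts on both sides of the fly neuromuscular synapse, followed the same order of pools. It was at 9.8, 13.0 and 16.6 FPKM in the controls, against 13.1, 18.4 and 10.0 FPKM with alcohol. Its log2 fold change was -0.17 (95% interval -0.74 to 0.41). *Nlg3* (FBgn0083963, 3R:7570281-7639434, minus strand) was at 3.6, 4.51 and 6.22 FPKM in the controls, against 4.73, 6.5 and 3.88 FPKM with alcohol. The low and high pools were thus the same as for *Nrx-1*, and the log2 fold change was -0.13 (95% interval -0.62 to 0.36). The sign of these 3 small differences changed with the fit. Without the covariate they were 0.06 for *Nrx-1*, 0.06 for *Nlg2* and 0.07 for *Nlg3*. They were also above 0 with quantile normalization, which was run without the covariate. With the covariate kept, they were above 0 with TPM rescaling and without alcohol replicate 3.

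*Nlg4* (FBgn0083975, 3R:20204809-20245473, plus strand), a neuroligin known in the fly for its part in sleep, was at 2.62, 4.93 and 5.42 FPKM in the control pools. In the alcohol pools it was at 4.22, 4.53 and 3.28 FPKM, all between the lowest and the highest control pool. Its log2 fold change of -0.30 had the narrowest interval of the 6 genes in the fit with the covariate, from -0.68 to 0.08. Without the covariate it was -0.05, and the interval, from -0.67 to 0.57, was no longer the narrowest. With quantile normalization, run without the covariate, it was 0.30.

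*Nlg1* (FBgn0051146, 3R:7658247-7694874, plus strand), which in the fly is known as the neuroligin of muscle at the neuromuscular junction, was the lowest of the 7. It was at 0.368, 0.278 and 0.196 FPKM in the controls, against 0.322, 0.263 and 0.186 FPKM with alcohol, resting on between 4.0 and 7.2 kilobases of aligned sequence per pool. Its exons share 243 bases with a transposable element annotated on the same strand, and what these bases added to the level was not tested. The muscle marker sum, at 476, 60.8 and 68.7 FPKM in the controls, against 371, 95.1 and 334 FPKM with alcohol, was highest in the 2 pools where *Nlg1* was highest, but alcohol pool 3 combined a high muscle sum with the lowest *Nlg1* value. *Nlg1* and *Nlg3* are divergent neighbours, with 18812 bases between them that hold only 4 annotated transposable elements. Their mean levels were 0.269 and 4.91 FPKM.

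Of the scaffolds, *dlg1* (FBgn0001624, X:11369665-11409776, plus strand) was at 43.0, 49.4 and 49.7 FPKM in the controls, against 48.3, 58.0 and 36.9 FPKM with alcohol. The alcohol pools reached both above and below all control pools, with means of 47.4 ± 3.81 and 47.7 ± 10.6 FPKM (SD, n = 3 each). Its log2 fold change was -0.10 (95% interval -0.61 to 0.41), and was above 0 with TPM rescaling, with quantile normalization (no covariate) and without alcohol replicate 3. *Prosap* (FBgn0040752, 2R:14060456-14140902, minus strand) was at 26.7, 37.0 and 29.7 FPKM in the controls, against 29.7, 29.9 and 20.5 FPKM with alcohol. Alcohol pool 3 was the lowest for both scaffolds. The log2 fold change of *Prosap* was -0.31 (95% interval -0.88 to 0.27), and it stayed below 0 without the covariate, at -0.22.

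The levels of *Nrx-1*, *Nlg2* and *Nlg3* moved together from pool to pool, in control and alcohol pools alike, but those of *Nlg4* did so less closely and those of *Nlg1* did not. *Nlg2* was at 0.773, 0.783 and 0.819 of the *Nrx-1* level in the controls, against 0.766, 0.85 and 0.759 with alcohol, a coefficient of variation of 4.51% where the levels themselves varied by 25.7% and 21.4%. The ratio of *Nlg3* to *Nlg2* varied by 4.09%, and that of the 4 neuroligins summed to *Nrx-1* ran from 1.29 to 1.4, a variation of 3.29%, with *Nlg2* the largest part of that sum. *Nlg1* was highest in control pool 1, where *Nrx-1* was lowest, and its ratio to *Nrx-1* varied by 40.7%. The ratio of *Nlg4* to *Nrx-1* varied by 14.1% and that of *Prosap* to *dlg1* by 13.0%. None of these ratios separated the groups.

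Among the 8247 tested genes, *Nlg2* had the level most like that of *Nrx-1* over the 6 pools, with a Pearson r of log2(FPKM + 1) of 0.9956. It was followed by *rho-5*, a rhomboid family gene, at 0.9932, and by *Rim*, which encodes a presynaptic active zone protein, at 0.9931. *Nlg3* had rank 23 by the same measure and the neuron marker *elav* rank 76, at 0.982 and 0.963. The genes most like *dlg1* were others: *Tak1* at 0.9974, which encodes a kinase of immune signalling, *CG5004* at 0.9968 and *GramD1B* at 0.9943, with *Nrx-1* at 0.888 in rank 272. These correlations describe 6 pools that share their libraries and tissue makeup, and no test was made of them.

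**Figure D2:**
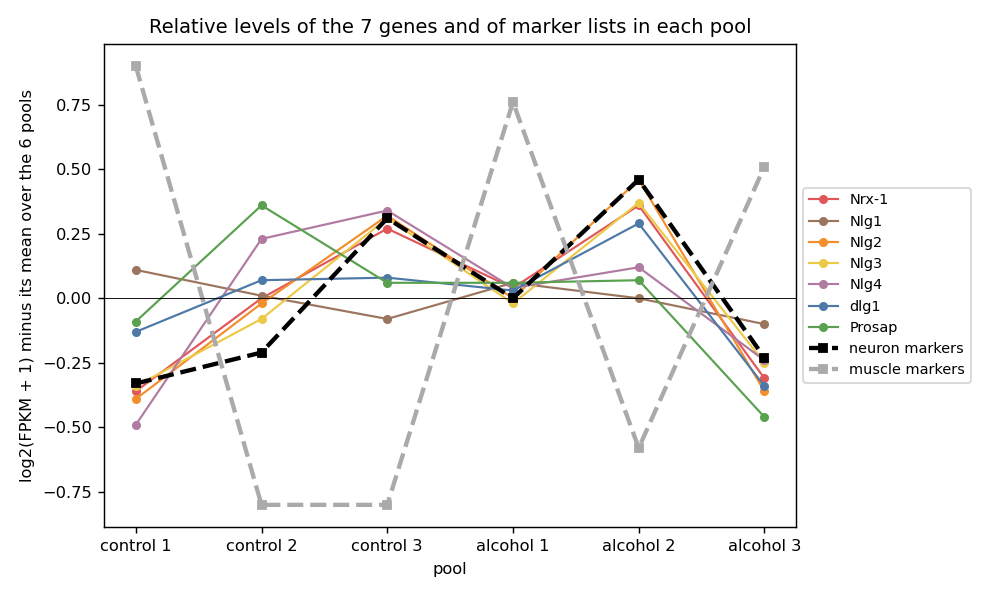
log2(FPKM + 1) of each of the 7 genes, and the mean over the neuron and the muscle markers, minus its own mean over the 6 pools (vertical axis), by pool (horizontal axis). *Nrx-1*, *Nlg2*, *Nlg3* and the neuron markers are lowest in control pool 1 and highest in alcohol pool 2, while the muscle markers are highest in control pool 1 and lowest in control pools 2 and 3.

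The neuron markers varied in the same way. Their sum was 258, 282 and 416 FPKM in the controls, against 324, 451 and 278 FPKM with alcohol, and their mean log2 level was lowest in control pool 1 and highest in alcohol pool 2, with all 6 pools in the same order as for *Nrx-1*, *Nlg2* and *Nlg3*. *Nrx-1* was at 0.229, 0.248 and 0.235 of the *elav* level in the controls, against 0.252, 0.258 and 0.27 with alcohol (means 0.237 ± 0.00965 and 0.26 ± 0.00886, SD, n = 3 each), which did not overlap, as for 2.91% of the 8246 genes tested other than *elav*. This held for 1 of the 7 neuron markers only. The ratio of *Nrx-1* to each of the other 6 overlapped between the groups, and its mean was lower with alcohol for all 6, as for *nSyb* at 0.187, 0.224 and 0.164 in the controls, against 0.198, 0.17 and 0.147 with alcohol. With the mean of the neuron markers as covariate, chosen after the data were seen, the log2 fold change of *Nrx-1* was -0.07 and its interval ran from -0.37 to 0.22. The ratios of *dlg1* and *Prosap* to *elav* overlapped between the groups. The part that the makeup of the pools had in any of these values was not tested.

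Transcripts carry the FlyBase suffix (RA, RB and so on) of the annotated transcript they matched. Of single transcripts, 12 of the 45 passed the variance filter: 2 of *Nrx-1*, 2 of *Nlg2*, 1 of *Nlg3*, 4 of *dlg1* and 3 of *Prosap*. Only *Nrx-1*-RH was called, higher in alcohol pools, where 3.85% of all 14645 transcripts tested were called and 2.03% were called higher. The groups did not overlap for *Nrx-1*-RH and *dlg1*-RP, against 7.72% of all transcripts tested, or 2.82% with the alcohol pools higher as here. The log2 fold changes of the 12 ran from -1.27 to 1.83, and 9 were below 0, or 7 without the covariate. With the covariate, 7389 of all 14645 transcripts tested were below 0.

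**Figure D3:**
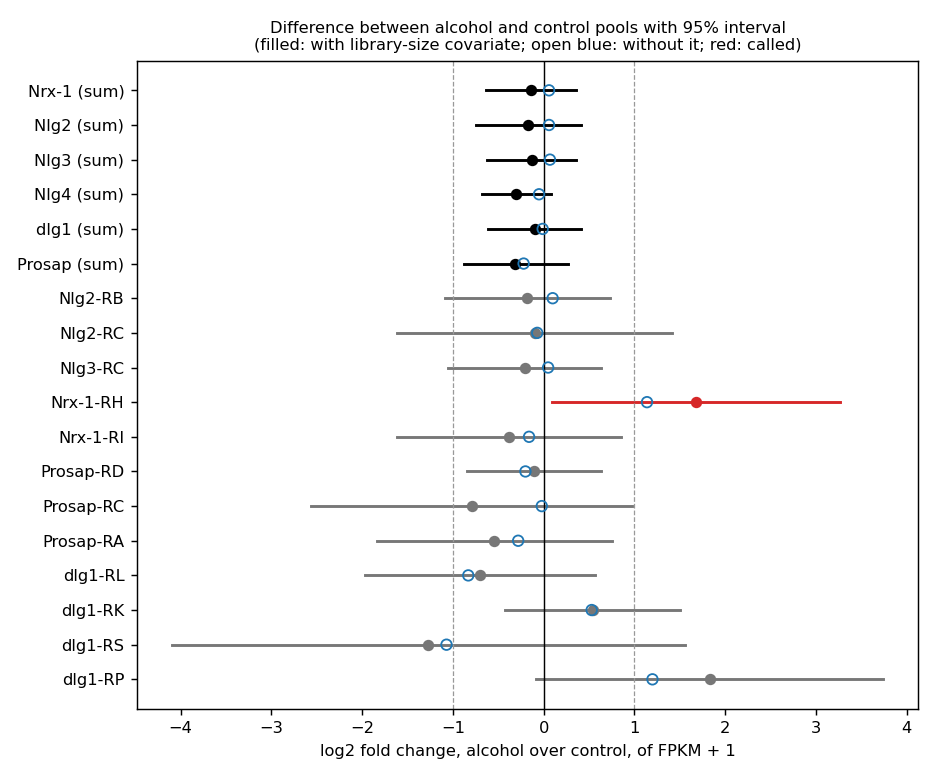
log2 fold change of FPKM + 1, alcohol over control (horizontal axis), with its 95% interval for the 6 tested gene sums (black) and the 12 tested transcripts (grey, or red where called). Open blue circles are values without the library-size covariate and dashed lines mark a 2-fold change. The gene sums lie between -0.31 and -0.10, and only *Nrx-1*-RH has an interval that leaves out 0.

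*Nrx-1* has 9 listed transcripts with 3 start sites, 4 ends and 5 coding sequences, but the gene's level came almost wholly from a pair of them, *Nrx-1*-RI and *Nrx-1*-RH. These share their start site, 13 exons and the whole coding sequence of 1840 residues, and differ by the last 290 bases of the 3′ untranslated region, which only RI has. Together they made up between 93.4% and 98.1% of the *Nrx-1* level in each pool, and their sum was 12.4, 15.8 and 19.0 FPKM in the controls, against 16.7, 21.2 and 12.3 FPKM with alcohol. The other 7 transcripts, which include all those with another coding sequence, each had a highest value of 0.621 FPKM or less.

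The transcript that was called, *Nrx-1*-RH, was at 2.12, 2.53 and 0 FPKM in control pools 1, 2 and 3 and at 3.65, 3.85 and 4.25 FPKM in the alcohol pools. Every alcohol pool was above every control pool, and in control pool 3 the transcript was listed at 0 although *Nrx-1* as a whole was second highest there. RH has 0 bases that RI lacks, so no sequence belongs to RH alone, and its value is what the quantification assigned to it from sequence shared with RI. The limma log2 fold change was 1.68 (SE 0.609, unadjusted p = 0.0422, adjusted p = 0.999), and the exact two-sided permutation test gave 0.1, the smallest p that 3 against 3 pools allow. Groups of 3 that do not overlap always give this p, so it adds nothing to the lack of overlap. Without control replicate 3 the log2 fold change was 0.35, and without the covariate it was 1.14 with a limma p of 0.0694. Of the fits with a pool left out, only the one without control replicate 2 called it.

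*Nrx-1*-RI, the longer form, was at 10.3, 13.2 and 19.0 FPKM in the controls, against 13.1, 17.4 and 8.06 FPKM with alcohol. It overlapped between the groups, with a log2 fold change of -0.38 (95% interval -1.62 to 0.85). As a share of the gene, RH made up 16.7%, 15.2% and 0% in the controls, against 21.3%, 17.8% and 32.3% with alcohol. The largest and the smallest share of RH thus came from the pools in which RI was lowest and highest.

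The limma usage test asks whether the transcripts of a gene changed unequally, and 4 of the genes had enough tested transcripts for it. Its unadjusted p was 0.0378 for *Nrx-1* (adjusted p = 0.484), 0.072 for *dlg1* (0.566), 0.697 for *Prosap* (0.989) and 0.917 for *Nlg2* (1.0). At an adjusted p under 0.05, 0 of the 4 were called, where 0.606% of 3630 genes were, and 1 of the 4 had an unadjusted p under 0.05, where 9.83% of all genes did. The share of the gene's level did not overlap between the groups for 4 of the 12 tested transcripts, *Nrx-1*-RH and 3 of *dlg1*, against 9.89% of all tested transcripts of genes with several. The 3 of *dlg1* are shares of the same total, so a rise in 1 lowers others and they are not separate results.

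**Figure D4:**
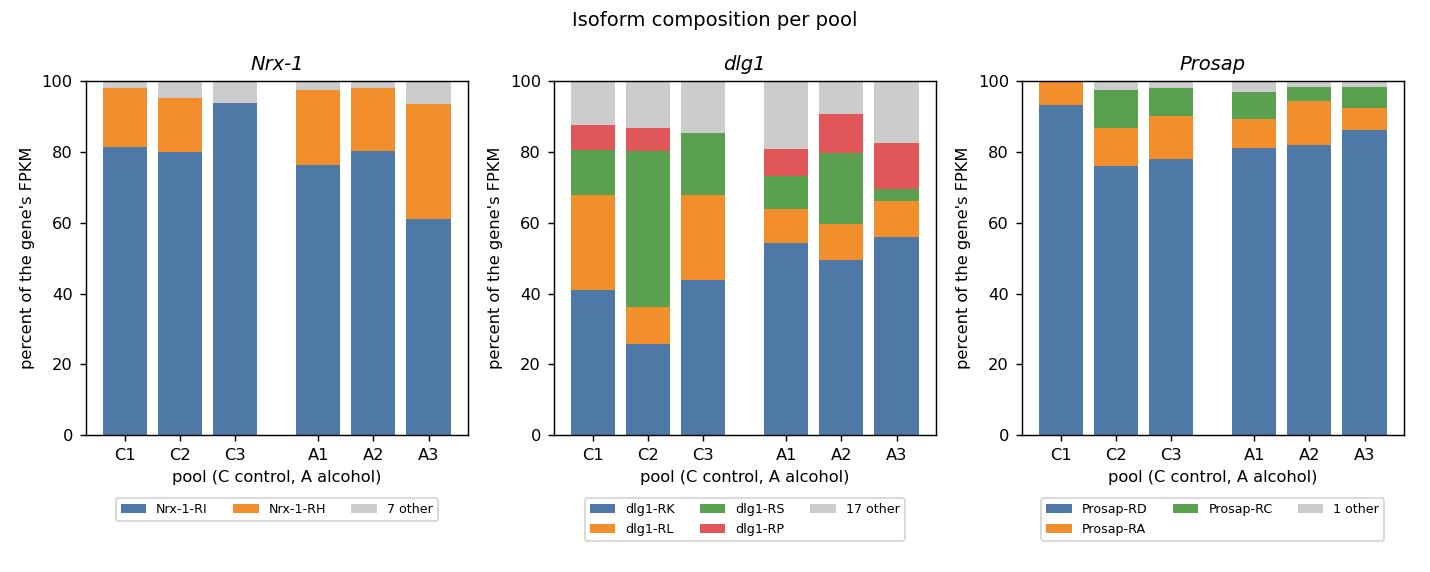
Share of the summed FPKM of *Nrx-1*, *dlg1* and *Prosap* (vertical axis, percent) that each tested transcript made up in each pool, with the untested transcripts in grey. *dlg1*-RK has the larger share in all alcohol pools (49.6% to 56.0%, against 25.6% to 43.7% in control pools), and the *Nrx-1*-RH band is missing in control pool 3.

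*dlg1* was the most divided gene, with 21 listed transcripts from 7 start sites. The 19 of them that matched a single annotated transcript had 14 coding sequences. *dlg1*-RT was listed at 0 in every pool. The 4 tested transcripts, RK, RL, RS and RP, together made up between 80.9% and 90.8% of the gene, and the other 17 were each at 2.35 FPKM or less in every pool. Their proteins are 911, 946, 960 and 983 residues long. Of these 4, only RK has bases that no other matched *dlg1* transcript has, 496 of them. RL, RS and RP have 0, so their values are what the quantification assigned to them from shared sequence. RK and RL end at the same base and share 78.9% of their joint coding bases, while RS and RP share 97.7% of theirs and start further downstream.

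*dlg1*-RK, the most abundant form, was at 17.6, 12.7 and 21.8 FPKM in the controls, against 26.2, 28.7 and 20.7 FPKM with alcohol. Control pool 3 lay above alcohol pool 3, so the levels overlapped, and the log2 fold change was 0.54 (95% interval -0.43 to 1.5). The share did not overlap, at 41.1%, 25.6% and 43.7% against 54.3%, 49.6% and 56.0%. Single control pools moved this value in both directions: it was 0.26 without control replicate 2 (limma unadjusted p = 0.502), and without control replicate 3 it was 1.17 and was called (limma unadjusted p = 0.0494).

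*dlg1*-RL, described because its share was seen not to overlap, was at 11.5, 5.26 and 12.0 FPKM in the controls, against 4.59, 5.91 and 3.73 FPKM with alcohol. It made up 26.7%, 10.6% and 24.2% of the gene in the controls, against 9.5%, 10.2% and 10.1% with alcohol, so that control pool 2 was only just above the alcohol pools. Its log2 fold change was -0.70 (95% interval -1.97 to 0.57). It was called lower without control replicate 2, at -1.16 (limma unadjusted p = 0.0359), and was 0.17 without control replicate 3. RK and RL added together were at 29.1, 17.9 and 33.8 FPKM in the controls, against 30.8, 34.7 and 24.4 FPKM with alcohol, which overlapped.

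*dlg1*-RS varied most of the 4, at 5.52, 21.7 and 8.58 FPKM in the controls, against 4.52, 11.6 and 1.21 FPKM with alcohol. In control pool 2 it alone made up 44.0% of the gene, the pool in which RK and RL were low. Its log2 fold change was -1.27 with a 95% interval of -4.09 to 1.56, the widest of the 12. *dlg1*-RP was at 2.96, 3.24 and 0 FPKM in the controls, against 3.74, 6.41 and 4.79 FPKM with alcohol. It was thus higher in every alcohol pool, and like *Nrx-1*-RH it was listed at 0 in control pool 3 and has 0 bases of its own. It made up 6.89%, 6.55% and 0% of the gene in the controls, against 7.75%, 11.1% and 13.0% with alcohol. Its log2 fold change was 1.83 (limma unadjusted p = 0.0566), and the exact two-sided permutation p was again 0.1, which the lack of overlap fixes. Without control replicate 3 the log2 fold change was 0.27, and it passed both thresholds without control replicate 2 (2.46) or alcohol replicate 1 (2.43).

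Listings at 0 were found in every pool. Of the 14645 tested transcripts, 5.49% were at 0 in control pool 3, and the share was between 3.8% and 6.06% over the 6 pools. Transcripts at 0 in a single pool while at 2 FPKM or more in all others, as *Nrx-1*-RH and *dlg1*-RP were, were far fewer. They numbered 14 in control pool 3 and between 14 and 39 over the pools.

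*Prosap* has 4 listed transcripts from 1 start site, each with its own coding sequence. *Prosap*-RD, whose 3′ end lies 1043 bases beyond that of the others, was at 24.9, 28.1 and 23.2 FPKM in the controls, against 24.1, 24.5 and 17.7 FPKM with alcohol. It made up between 76.1% and 93.3% of the gene in every pool, and its log2 fold change was -0.11 (95% interval -0.84 to 0.63). *Prosap*-RA, with 195 more coding bases than RD, was at 1.78, 3.98 and 3.66 FPKM in the controls, against 2.41, 3.75 and 1.24 FPKM with alcohol. *Prosap*-RC was listed at 0 in control pool 1 and was between 1.16 and 3.92 FPKM in the other pools, and *Prosap*-RE was at 0.952 FPKM or less. RA and RC overlapped between the groups, with log2 fold changes of -0.55 and -0.79.

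*Nlg2*, *Nlg3* and *Nlg4* were each carried mainly by 1 form. *Nlg2*-RB, from the upstream of 2 start sites, was at 8.04, 11.5 and 14.4 FPKM in the controls, against 12.0, 14.9 and 9.27 FPKM with alcohol, and *Nlg2*-RC, with the same coding sequence of 1248 residues, was between 0.741 and 3.53 FPKM, while *Nlg2*-RA was listed above 0 only in control pool 2, at 0.329 FPKM. *Nlg3*-RC made up 95.2% or more of *Nlg3* in every pool, and *Nlg3*-RB, with the same coding sequence and an earlier end, was at 0.311 FPKM or less. The tested forms overlapped between the groups, with log2 fold changes of -0.18 for *Nlg2*-RB, -0.10 for *Nlg2*-RC and -0.21 for *Nlg3*-RC.

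*Nlg4*-RE was at 2.62, 2.55 and 3.38 FPKM in the controls, against 3.12, 3.21 and 2.14 FPKM with alcohol. It was the only *Nlg4* form listed above 0 in control pool 1, where the gene was lowest, and *Nlg4*-RD, the next most abundant, was between 0 and 1.48 FPKM. *Nlg4*-RB and *Nlg4*-RC were at 0.825 FPKM or less. *Nlg1*-RD was at 0.368, 0.278 and 0.196 FPKM in the controls, against 0.164, 0.115 and 0.186 FPKM with alcohol. *Nlg1*-RE was listed at 0 in all control pools and in alcohol pool 3, and at 0.158 and 0.149 FPKM in alcohol pools 1 and 2. The groups of *Nlg1*-RD did not overlap, but the variance filter left it out, and the sum of both forms, which have the same coding sequence, overlapped.

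In all 5 of the genes with more than 1 listed end (*Nlg3*, *Nlg4*, *Nrx-1*, *Prosap* and *dlg1*), the most abundant transcript was among those that end furthest downstream. This held for 61.9% of the 3180 genes with at least 2 ends and a mean summed FPKM of at least 1. The share of the *Nrx-1* level that ended furthest downstream was lowest in alcohol pool 3, at 61.1%, and highest in control pool 3, at 93.9%.

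None of the listed partners of these genes was called on summed FPKM either. The list held 17 genes for adhesion proteins, receptors, ion channels, kinases and scaffolds, *CASK*, *Fas2*, *Sh* and *CaMKII* among them. They are known to bind or work beside neurexin, neuroligins, Discs large or Shank, and 16 were tested. In the limma fit 0 were called and 0 had an unadjusted p under 0.05. The log2 fold change was below 0 for 11 of the 16, against 4702 of all 8247 genes tested. Its median was -0.15, against -0.03 over all genes tested. Without the covariate, 10 were below 0 and the median was -0.05, against -0.04. Single transcripts of the partners were not examined here. The authors, who tested single transcripts, list *CaMKII* among the genes higher with alcohol, so a sum that was not called does not bear on that.

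The partners with the largest differences were *Spn*, *Ten-a* and *Ten-m*. *Spn*, which encodes the presynaptic scaffold Spinophilin, was at 25.4, 49.4 and 36.5 FPKM in the controls, against 35.5, 35.7 and 21.4 FPKM with alcohol, with a log2 fold change of -0.45. *Ten-a* and *Ten-m*, the teneurins, adhesion proteins that pair across the synapse beside the neurexin-neuroligin pair, had log2 fold changes of -0.45 and -0.43. *Ten-m* was at 45.6, 63.8 and 52.9 FPKM in the controls, against 46.3, 49.3 and 33.9 FPKM with alcohol, and *Ten-a* at 28.2, 56.8 and 41.0 FPKM against 40.9, 37.5 and 25.3 FPKM. All 3 overlapped between the groups, with alcohol pool 3 the lowest pool, and *Ten-m* had the smallest limma p of the 3, at 0.0948.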

How the data were processed

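The authors trimmed the reads with Trimmomatic 0.39, aligned them to dm6 with HISAT2 2.2.0, and assembled and quantified transcripts with StringTie 2.1.4. Per pool, the authors deposited every transcript's FPKM and its read coverage, not normalized further. A deposited table of the authors' own fold ratios, p-values and q-values was not used. Megabases per pool came from the ratio of coverage to FPKM. Transcripts were matched to the Ensembl annotation of dm6 by position, exon number and length, and 43 of 45 had a single match.

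The FPKM were analysed with R 4.3.3, limma 3.58.1, Python 3.11.15, numpy 2.4.6, pandas 2.3.3 and matplotlib 3.10.9. All transcripts, or summed genes, with an FPKM variance above 1 were fitted together on log2(FPKM + 1), with treatment and the sum of log2(FPKM + 1) below the 75th percentile of the pool as covariate, as Ballgown does. This scale understates changes of low features. P-values were adjusted by Benjamini-Hochberg. Treatment accounted for 40.3% of the variance of the covariate for transcripts and 18.2% for genes. Usage was tested with limma's diffSplice. The scripts were tested on simulated data. Alternatives were other covariates, blocks, pseudocounts, filters, scalings and tests, aligned bases per gene, and each pool left out in turn.

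The genes, partner and marker lists were chosen with earlier results of these data known. Transcripts are named if among the most abundant pair of a gene, called, or without overlap between groups. Partners are named if called or among the 3 largest differences. *Nrx-1* and *dlg1* were each compared with the 3 genes of highest r.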

Additional observations from a re-analysis of the deposited data

How the results depend on the processing

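The counts of 0 genes, 0 partners and 0 genes in the usage test held under all alternatives run. The count of 1 called transcript did not: it was 0 with no covariate, with a pseudocount of 0.1, with no variance filter, with TPM rescaling and with the ordinary F-test, and between 0 and 3 with each pool left out (0 without control replicate 1, alcohol replicate 2 or alcohol replicate 3, and 3 without control replicate 2). Over 359 alternative values, 290 kept direction and call, 42 reversed, 12 lost the call, 4 gained it and 11 counts moved. The calls over all 14645 transcripts went from 564 to between 285 (ordinary F-test) and 851 (without control replicate 3), those over all genes from 112 to between 48 and 164, and the usage calls from 22 to between 1 and 29. The cause was not tested.

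Replicate numbers were not taken to pair the pools, since the labels name no shared batch. Deviations from the group means correlated at -0.144 on average for the same number and 0.072 for others. Such deviations sum to 0 within a group, which ties these averages together, so they cannot show whether a batch was shared. The replicate block left 0 transcripts called, with or without the covariate. In the replicate block without covariate, as with no covariate, log2 fold changes turned to 0.062 (*Nrx-1*), 0.060 (*Nlg2*), 0.067 (*Nlg3*), 0.10 (*Nlg2*-RB) and 0.052 (*Nlg3*-RC). In the replicate block with covariate, *Nlg2*-RC turned to 0.089.

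TPM rescaling reversed *Nrx-1* (0.039), *Nlg2* (0.058), *Nlg3* (0.061), *dlg1* (0.052), *Nlg2*-RB (0.43), *Nlg2*-RC (0.74), *Nlg3*-RC (0.38), *Nrx-1*-RI (0.38), *Prosap*-RD (0.046) and *Prosap*-RA (0.19). Quantile normalization, run without the covariate, reversed *Nrx-1* (0.11), *Nlg2* (0.13), *Nlg3* (0.33), *Nlg4* (0.30), *dlg1* (0.010), *Nlg2*-RB (0.13), *Nlg2*-RC (0.19), *Nlg3*-RC (0.14) and *Prosap*-RC (0.076). With each pool left out, the range was -0.22 to 0.030 for *Nrx-1*, -0.28 to 0.025 for *Nlg2*, -0.24 to 0.0062 for *Nlg3* and -0.20 to 0.072 for *dlg1*, each above 0 only without alcohol replicate 3. It was -0.32 to 0.068 for *Nlg2*-RB, -0.34 to 0.073 for *Nlg3*-RC, -0.59 to 0.085 for *Nrx-1*-RI and -1.16 to 0.17 for *dlg1*-RL, each above 0 only without control replicate 3. It was -0.48 to 0.36 for *Nlg2*-RC and -0.19 to 0.012 for *Prosap*-RD. None of these reversed values was called.

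No read counts were used, so depth limits are known only as aligned bases. With 3 pools a group, the 95% intervals of the 6 gene sums in the fit with the covariate, as folds of FPKM + 1, reach down to between 0.544-fold and 0.653-fold and up to between 1.06-fold and 1.33-fold. Without the covariate, the lowest limit was a log2 fold change of -0.72 (*Prosap*) and the highest was 0.74 (*Nlg2*). Isoforms without bases of their own rest on the quantification model.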
